A study of Mus musculus with 26 samples.

Results

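The genes described here are 9 very long brain genes, Csmd1, Csmd2, Csmd3, Lrp1b, Ptprd, Ctnna2, Ctnna3, Dlg2 and Magi2, out of 27501 identifiers in a table of RNA counts from mouse brain. They were chosen by name, and their rows were found by Ensembl identifier. All 9 were in the table. The choice was made with results of these data known: differences of Csmd3 and Ptprd between sorted cell types had been seen before. Their levels in sorted nuclei, and the fit between sorted types, are therefore given as a description from which nothing is concluded.

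The study measured RNA in nuclei of neurons, astrocytes and oligodendrocytes from whole brain of mice aged 6 to 12 weeks. Sorted neuron nuclei and presort nuclei of the neuron line came from mice with the transgene Tg(Snap25-EGfp/Rpl10a)JD362Htz. Sorted astrocyte nuclei and presort nuclei of the astrocyte line came from mice with Tg(Aldh1L1-EGfp/Rpl10a)JD130Htz, and sorted oligodendrocyte nuclei and presort nuclei of the oligodendrocyte line from mice with Tg(Cnp-EGfp/Rpl10a)JD368Htz. All 3 lines are /J stocks labelled B6.FVB. All mice thus carried a transgene that fuses green fluorescent protein to the ribosomal protein Rpl10a, driven by Snap25, Aldh1l1 or Cnp, and a cell type here means the cells in which that driver marked the nuclei. Presort nuclei are the mixture of nuclei before sorting. Each of these 6 groups had 4 libraries, 2 from females and 2 from males, and each library came from 1 mouse. The 2 cytoplasm libraries came from a male of the Aldh1L1 line (replicate 1) and a female of the Cnp line (replicate 2). Their labels name a cell type, but the tissue is whole brain, and they were used as whole-brain cytoplasm.

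Csmd1, Csmd2 and Csmd3 encode very large membrane proteins with CUB domains and sushi domains, which are also found in regulators of complement. Lrp1b is an endocytic receptor of the LDL receptor family. Ptprd is a receptor tyrosine phosphatase of the LAR type that organizes synapses by binding partners such as Slitrk proteins and Il1rap. Ctnna2 and Ctnna3 are alpha-catenins, which tie cadherins to actin. Dlg2 (PSD-93) and Magi2 (S-SCAM) are scaffold proteins of the postsynaptic density. Genes of this size consist almost entirely of introns, and nuclei hold unspliced and partly spliced transcript beside mature mRNA. The sources used here do not state whether counts were taken over exons or whole genes, nor whether strand was used.

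In GENCODE M21 (GRCm38), 8 of the 9 genes span over 1 Mb, a length reached by 59 of 21951 protein-coding genes. Ptprd (chr4:75941238-78211961, minus strand) ranks 3 in length at 2271 kb and Lrp1b (chr2:40595246-42653624, minus) ranks 7 at 2058 kb. Dlg2 (chr7:90476672-92449247, plus) spans 1973 kb, Csmd1 (chr8:15892537-17535586, minus) 1643 kb and Ctnna3 (chr10:63430098-65003667, plus) 1574 kb. Magi2 (chr5:19227036-20704792, plus) spans 1478 kb, Csmd3 (chr15:47580637-48792063, minus) 1211 kb and Ctnna2 (chr6:76881637-77979699, minus) 1098 kb. Csmd2 (chr4:127987857-128567656, plus) is the short member at 579.8 kb. Annotated exons make up between 0.459% of the span (Ctnna3) and 2.95% (Csmd2). Exonic bases shared with another gene of the table were found in Magi2 alone, 203 bases or 1.79% of its exonic length. The genes nested in introns include Lrrtm1 in Ctnna2 and Lrrtm3 in Ctnna3, both on the opposite strand. If introns were counted without strand, reads of a host gene and a nested gene could not be told apart.

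Promoter windows of RefSeq (GRCm38.p6), which run from 250 bases before to 50 bases after a start site, were at hand for 4 of the 9 genes, Ctnna2, Ctnna3, Dlg2 and Magi2. The windows of the paralogs Ctnna2 and Ctnna3 are shown because these alpha-catenins had different cell-type patterns in the nuclei. Each is read 5′ to 3′ on the gene's strand, with CpG dinucleotides in capitals.
Ctnna2, chr6:77979618-77979917, minus strand: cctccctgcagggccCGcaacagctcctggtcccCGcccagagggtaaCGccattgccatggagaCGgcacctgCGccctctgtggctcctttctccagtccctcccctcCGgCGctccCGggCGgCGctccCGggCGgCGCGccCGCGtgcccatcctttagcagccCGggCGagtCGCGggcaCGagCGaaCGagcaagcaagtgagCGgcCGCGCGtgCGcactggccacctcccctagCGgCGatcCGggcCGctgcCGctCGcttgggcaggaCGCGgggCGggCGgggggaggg
Ctnna3, chr10:63429848-63430147, plus strand, the first of 3 start sites: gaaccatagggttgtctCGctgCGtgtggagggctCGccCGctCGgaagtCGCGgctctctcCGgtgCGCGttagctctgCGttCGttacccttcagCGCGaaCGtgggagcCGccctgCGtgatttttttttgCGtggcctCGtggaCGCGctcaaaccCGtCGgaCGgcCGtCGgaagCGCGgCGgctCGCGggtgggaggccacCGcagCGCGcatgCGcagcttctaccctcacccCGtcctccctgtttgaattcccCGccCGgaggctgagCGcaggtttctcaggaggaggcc
The Ctnna2 window held 38 CpG and the Ctnna3 window 39, against a median of 7 over all 32851 windows, and 5.0% and 4.4% of all windows held at least as many. The other start sites of Ctnna3 had 7 and 2 CpG, those of Magi2 29 and 4, and those of Dlg2 3, 1 and 2. The letters ACAAAG, a core sequence bound by SOX factors, were searched on both strands. They were in neither printed window, in the second windows of Ctnna3 and Magi2, and in 18.7% of all windows.

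Total counts per library ranged from 134357 to 3239445 in sorted nuclei, from 147826 to 3274488 in presort nuclei (median 260451) and were 4461568 and 3885312 in cytoplasm. Levels are CPM, counts scaled to library totals corrected by TMM, and a floor of 3 counts corresponds to between 0.802 and 19.7 CPM. The sorted groups bore the markers of their names. Astrocyte markers summed to between 24160 and 42890 CPM in sorted astrocytes and to at most 2813 CPM in the other sorted groups, and oligodendrocyte markers to between 39080 and 55520 CPM in sorted oligodendrocytes and at most 2041 CPM in the others. Neuron markers summed to between 7716 and 9790 CPM in sorted neurons and to between 1265 and 3345 CPM in the other sorted groups. One library stood apart: sorted oligodendrocyte replicate 36 had 7674 genes detected, against at least 16223 in every other sorted oligodendrocyte library, and its precursor marker sum of 4116 CPM consisted almost wholly of Bcas1 (4061 CPM), with Pdgfra and Cspg4 at 0 counts. The main results that involve this library are given with and without it. Sorted astrocyte replicate 30 was the shallowest library. In bulk samples fewer cells of a type and less RNA per cell cannot be told apart.

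Sorted nuclei differed widely in how much of their RNA came from these genes. The 9 genes together took 0.328% to 0.576% of all counts in sorted neuron libraries, 0.156% to 0.243% in sorted astrocyte libraries and 1.35% to 1.57% in sorted oligodendrocyte libraries, against 0.339% to 0.5264% in presort nuclei and 0.0877% and 0.144% in cytoplasm. Ptprd alone gave 80.8% to 83.0% of the counts of the 9 genes in sorted oligodendrocytes, and 19.9% and 29.1% in cytoplasm.

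**Figure D1:**
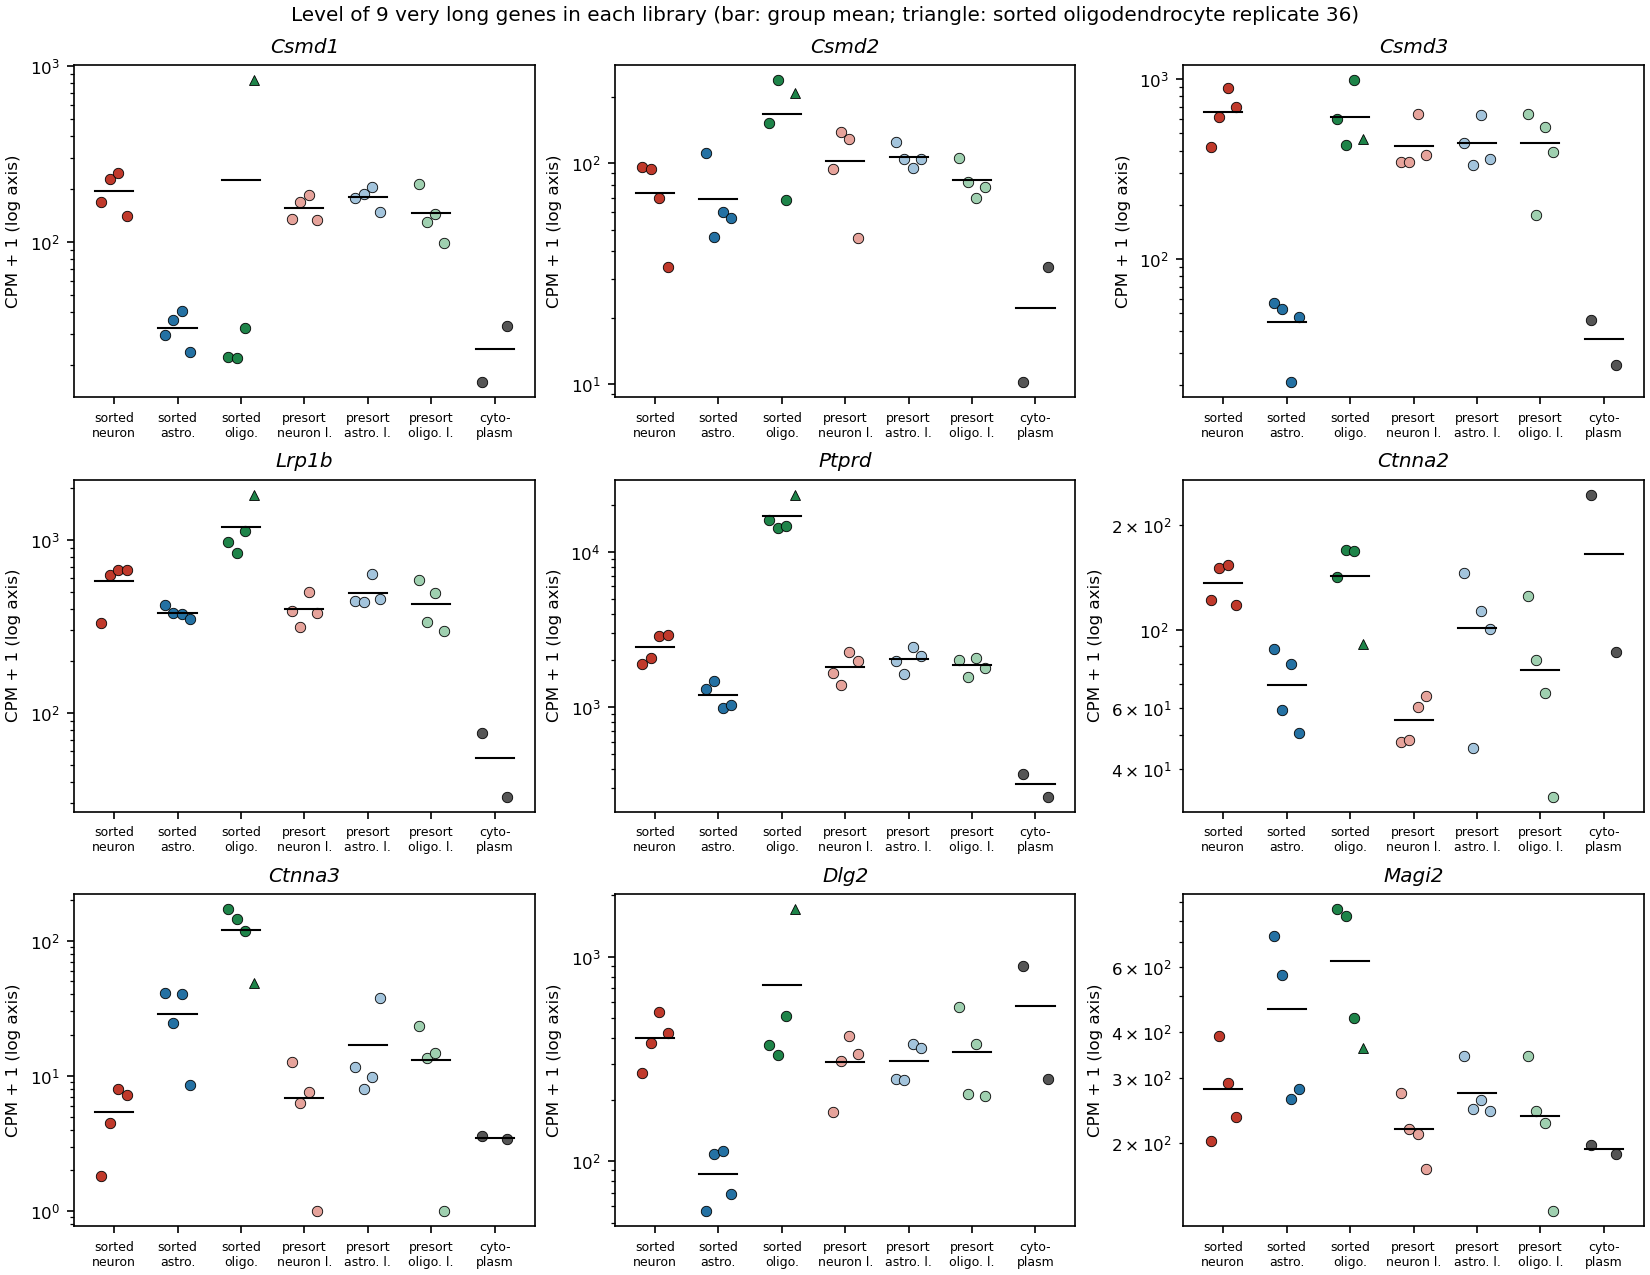
CPM + 1 (log axis) of the 9 genes in each of 26 libraries, by group, with a bar at the group mean of 4 libraries (2 for cytoplasm). Csmd1, Csmd3 and Dlg2 were low in sorted astrocytes, Ptprd was far above all other groups in sorted oligodendrocytes (14250 to 23280 CPM), and the triangle marks sorted oligodendrocyte replicate 36.

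Csmd3 was abundant in neurons and oligodendrocytes and scarce in astrocytes. It had 417.5, 614, 890.1 and 699.6 CPM in the sorted neuron libraries, 55.9, 51.4, 19.7 and 46.4 CPM in the sorted astrocyte libraries and 595, 426, 982 and 466 CPM in the sorted oligodendrocyte libraries. The astrocyte libraries lay below every library of the other types, whose ranges overlapped. Csmd1 followed the same order in neurons and astrocytes, with means of 195 ± 49.9 CPM and 31.4 ± 7.31 CPM (SD, n = 4 each), and the groups did not overlap. In sorted oligodendrocytes Csmd1 had 21.2, 20.8 and 31.6 CPM in 3 libraries and 826 CPM in replicate 36. Without that library the mean was 24.5 ± 6.12 CPM (SD, n = 3), and the 3 libraries lay below every sorted neuron library and overlapped the astrocytes. Csmd2 was low throughout, with a mean of 72.6 ± 29.1 CPM for neurons, 67.7 ± 28.97 CPM for astrocytes and 166 ± 74.7 CPM in oligodendrocytes (SD, n = 4 each), and its groups overlapped. Without replicate 36 the oligodendrocyte mean of Csmd2 was 152 ± 84.7 CPM and that of Csmd3 668 ± 285 CPM, in place of 617 ± 254 CPM.

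Within the Csmd family the ratios between paralogs, which rest on the same libraries as the levels, differed between cell types. Per kilobase of exon, the ratio of Csmd3 to Csmd1 had a median of 3.57 in sorted neurons (2.80 to 5.69), 1.93 in sorted astrocytes (0.564 to 2.31) and 27.4 in sorted oligodendrocytes (0.635 to 35.1, the lowest being replicate 36, without which the median was 31.7). The ratio of Csmd3 to Csmd2 had a median of 9.88 in sorted neurons, 0.677 in sorted astrocytes and 3.11 in sorted oligodendrocytes (3.97 without replicate 36), and the ranges of neurons (4.42 to 21.5) and astrocytes (0.337 to 1.14) were apart.

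Lrp1b was higher in oligodendrocytes than in the other types, but by less than Ptprd. Its levels were 330.5, 626, 669.7 and 675 CPM in sorted neurons, 418, 377, 374 and 349 CPM in sorted astrocytes and 973, 842, 1125 and 1828 CPM in sorted oligodendrocytes. Every oligodendrocyte library lay above every other library of the study, whereas neurons and astrocytes overlapped through neuron replicate 2. Without replicate 36 the oligodendrocyte mean was 980 ± 141 CPM (SD, n = 3).

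Ptprd reached 16010, 14250, 14650 and 23280 CPM in sorted oligodendrocytes, where it ranked 2 or 3 among all genes by counts in each library and took 1.11% to 1.27% of all counts. It had 1903, 2069, 2889 and 2924 CPM in sorted neurons and 1301, 1467, 984 and 1028 CPM in sorted astrocytes. The 3 types did not overlap, and without replicate 36 the oligodendrocyte mean was 14970 ± 922 CPM (SD, n = 3) in place of 17050 ± 4222 CPM (SD, n = 4). By group mean per kilobase of annotated exon, too, Ptprd had the highest level of the 9 genes in each nuclear group. In cytoplasm it was exceeded by Dlg2, Ctnna2 and Magi2 on that scale.

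The alpha-catenins showed different patterns. Ctnna3 was an oligodendrocyte-high gene with 170, 143, 116 and 48.0 CPM in sorted oligodendrocytes, against 40.1, 23.7, 39.4 and 7.54 CPM in sorted astrocytes and 0.806, 3.465, 7.04 and 6.27 CPM in sorted neurons, where it rested on 2 to 17 counts. The 3 types did not overlap, but astrocyte replicate 32 (7.54 CPM, 20 counts) lay close to neuron replicate 26 (7.04 CPM, 17 counts). The 39.4 CPM of astrocyte replicate 30 came from 6 counts. Replicate 36 was the lowest oligodendrocyte library. Ctnna2 averaged 142 ± 36.4 CPM in oligodendrocytes, 135 ± 18.8 CPM in neurons and 68.4 ± 17.4 CPM in astrocytes (4 libraries each, ± SD). Without replicate 36 the oligodendrocyte mean was 159 ± 15.3 CPM. The oligodendrocyte and neuron libraries overlapped, and the astrocytes lay below all of them. Lrrtm3, a synaptic adhesion gene in an intron of Ctnna3, had a cell-type order unlike its host: it averaged 722 ± 89.9 CPM in sorted neurons, 27.9 ± 14.0 CPM in sorted astrocytes and 164 ± 120 CPM in sorted oligodendrocytes (SD, n = 4 each), and was higher in neurons than in oligodendrocytes (log2 fold change 2.18 ± 0.49, edgeR adjusted p = 0.00421, and 2.82 ± 0.36 without replicate 36). Lrrtm1, in an intron of Ctnna2, averaged 91.9 ± 31.1 CPM in neurons, 18.2 ± 5.70 CPM in astrocytes and 33.02 ± 22.05 CPM in oligodendrocytes.

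Of the scaffold genes, Dlg2 was scarce in sorted astrocytes (55.9, 108, 112 and 67.8 CPM) and lay between 270.4 and 534 CPM in sorted neurons and between 331 and 510.3 CPM in 3 sorted oligodendrocyte libraries, with 1708 CPM in replicate 36. Astrocytes were below every other sorted library. Magi2 averaged 621 ± 259 CPM in sorted oligodendrocytes, 460.1 ± 228 CPM in sorted astrocytes and 279 ± 82.2 CPM in sorted neurons (SD, n = 4 each), and these groups overlapped. Without replicate 36 the oligodendrocyte mean was 708 ± 236 CPM (SD, n = 3).

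**Figure D2:**
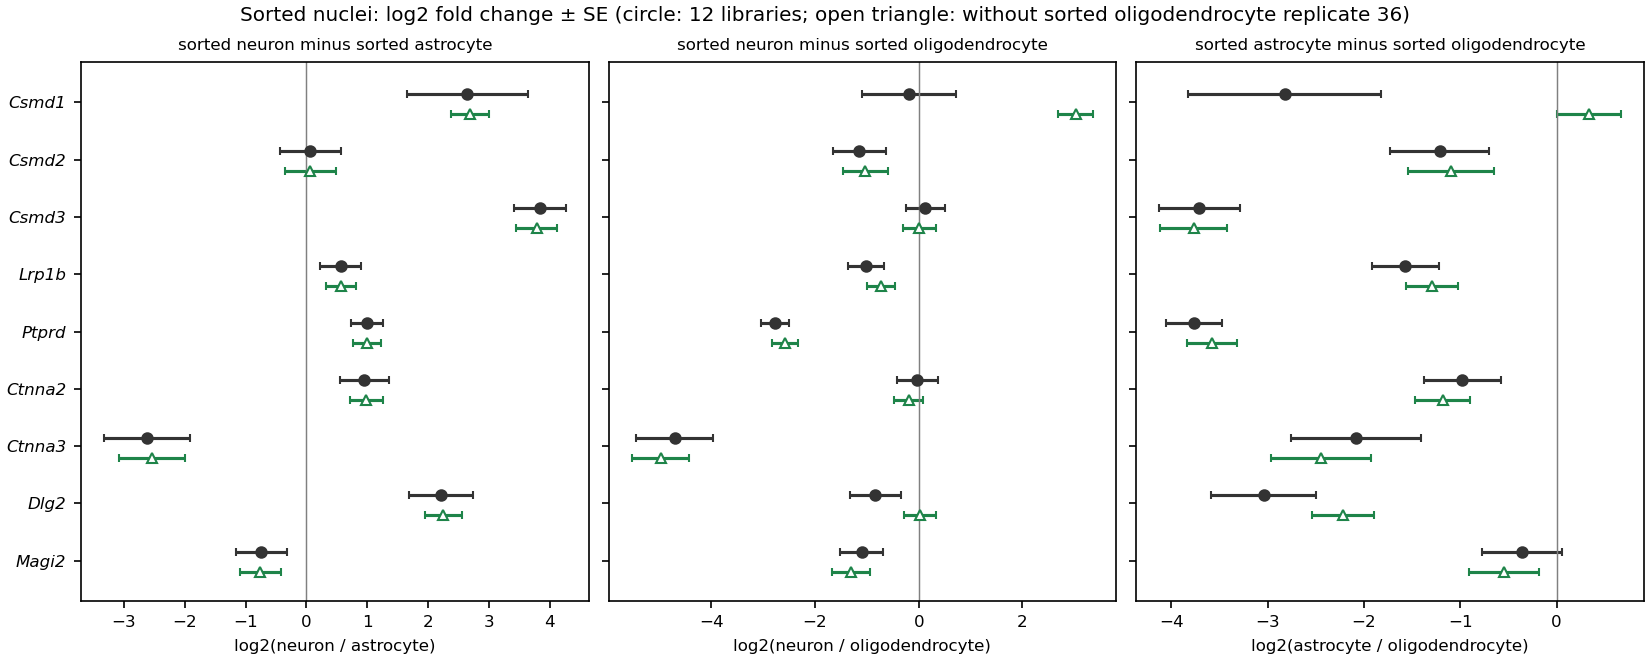
Log2 fold change ± SE (x axis) of the 9 genes (y axis) between sorted types, from 12 libraries (circles) and without sorted oligodendrocyte replicate 36 (open triangles). Csmd1 moves by more than its error when that library is left out, to 3.03 for neurons over oligodendrocytes; the direction of Ptprd, Ctnna3 and Csmd3 against astrocytes does not change.

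In the fit across 13029 genes, neurons exceeded astrocytes most for Csmd3 (log2 fold change 3.84 ± 0.42), Csmd1 (2.645 ± 0.996) and Dlg2 (2.21 ± 0.53). Ptprd had 0.997 ± 0.260 and Ctnna3 -2.62 ± 0.71. Of the 9 genes 3 passed as higher (Csmd3, Dlg2 and Ptprd, but not Csmd1), where 8.02% of all genes did, and 1 as lower (Ctnna3), where 11.4% did. Replicate 36 is in neither of these groups but shares the fit. Without it Csmd1 and Ctnna2 also passed as higher, as did 2299 of 13560 genes in all. Between neurons and oligodendrocytes the fold changes were -4.70 ± 0.74 for Ctnna3, -2.77 ± 0.28 for Ptprd and -1.01 ± 0.34 for Lrp1b. None passed as higher in neurons (10.7% of all genes) and these 3 as lower (12.4%). The pass of Lrp1b was lost in 9 of 12 fits with 1 library left out. Without replicate 36, Csmd1 passed as higher, and Magi2 passed as lower beside the 3, where 2263 and 2544 of 13560 genes did. Between astrocytes and oligodendrocytes they were -3.76 ± 0.29 for Ptprd, -3.71 ± 0.42 for Csmd3, -3.04 ± 0.54 for Dlg2 and -2.09 ± 0.67 for Ctnna3, with none higher in astrocytes (9.62% of all genes) and 5 lower (7.49%). Here the pass of Ctnna3 was lost in 8 of 12 fits with 1 library left out. With replicate 36 left out, 6 of the genes passed as lower and none as higher, where 1588 and 1980 of 13560 genes did. The groups did not overlap for 34% of all genes between neurons and astrocytes, 28.3% between neurons and oligodendrocytes and 21.5% between astrocytes and oligodendrocytes. Since earlier values from these contrasts guided the choice of genes, nothing is read from these counts. Without replicate 36, Csmd1 had 2.69 ± 0.31 for neurons over astrocytes, 3.03 ± 0.34 for neurons over oligodendrocytes (in place of -0.18 ± 0.91) and 0.34 ± 0.33 for astrocytes over oligodendrocytes (in place of -2.824 ± 1.004). Dlg2 then had 0.03 ± 0.31 for neurons over oligodendrocytes, in place of -0.83 ± 0.50.

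The remaining genes of over 1 Mb give the setting. Of 44 other such protein-coding genes tested, neurons had 20 higher and 2 lower relative to oligodendrocytes, with a median log2 fold change of 1.81, while the 9 genes had a median of -1.01. Against astrocytes, neurons had 18 of the 44 higher and 6 lower, with a median of 1.20, and the 9 genes had a median of 0.95. For astrocytes over oligodendrocytes, the 44 genes had a median of 0.18 and the 9 genes of -2.09. Over all 13029 genes the 3 medians were 0.16, 0.05 and 0.11 in the same order. Without replicate 36, neurons had 31 of 45 other genes of over 1 Mb higher and 3 lower relative to oligodendrocytes (median 1.58, against -0.73 for the 9 genes). Of all 13560 genes in that fit, 2263 were higher and 2544 lower. For astrocytes over oligodendrocytes the medians were then -0.12 for the other genes and -1.29 for the 9 genes.

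The genes whose profiles over the sorted libraries were most like each member depended on 1 library. Likeness was the root mean square difference of centred log2 CPM, where smaller is closer. Of the 27 nearest genes, 3 for each member, 8 were still among the nearest 3 when replicate 36 was left out. Those for Csmd1 and Dlg2 were all replaced. Tfdp2 was nearest to Lrp1b both with all libraries (0.199) and without replicate 36 (0.162), and Bmi1 to Ctnna2 (0.217 and 0.217). Tppp, which encodes a tubulin-binding protein of oligodendrocytes, was nearest to Ptprd (0.278 and 0.287), with means of 933 CPM in oligodendrocytes, 136 CPM in neurons and 55.8 CPM in astrocytes over a span of 26.4 kb. Tet3 was nearest to Csmd2 (0.232 and 0.228). Tanc2 for Ctnna2, Ubn1 for Magi2, Tmem159 for Csmd3 and Cyp3a13 for Ctnna3 were also among the nearest 3 both times. Among the 9 genes themselves the closest pair was Lrp1b with Ctnna2 (0.657, and 0.386 without replicate 36) and the most distant Csmd1 with Ctnna3 (3.23 and 3.29).

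Whether sorting moved the genes away from the mixture of nuclei was tested within each line, with edgeR over all genes. The sorted libraries are those of the contrasts above, so these tests are not independent support for Csmd3 and Ptprd. The design text says that presort RNA was taken from each mouse, but the labels do not tie a presort library to a sorted one, and the tests are unpaired.

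In the astrocyte line 4 of 9 genes were lower in sorted than in presort nuclei (15.2% of all genes were) and none was higher (13.7%). The unadjusted p was under 0.05 in either direction for 7 of the 9 genes in this line. The numbers were 4 of 9 in the oligodendrocyte line and 1 of 8 in the neuron line. The share of all genes under that cut was not counted, so nothing is read from these numbers. Where edgeR gave a count of 0 members in a direction DESeq2 gave 0 too. Csmd3 had 55.9, 51.4, 19.7 and 46.4 CPM in sorted astrocyte nuclei and 439.7, 332.7, 627 and 358 CPM in presort nuclei, a log2 fold change of -3.40 ± 0.30 (adjusted p = 1.08e-07). Csmd1 had 22.6 to 39.4 CPM in sorted and 148 to 204 CPM in presort nuclei (-2.78 ± 0.31, adjusted p = 9.18e-07). Neither gene's groups overlapped, as was so for 27.1% of all genes in this line. Dlg2 had 55.9 to 112 CPM in sorted and 249.5 to 372 CPM in presort nuclei (-2.07 ± 0.30, adjusted p = 1.99e-05), and Ptprd 984 to 1467 CPM in sorted and 1639 to 2447 CPM in presort nuclei (-0.93 ± 0.23, adjusted p = 0.00362). The fall of Ptprd did not pass among males alone (-0.56, adjusted p = 0.339). Lrp1b (-0.54 ± 0.23, adjusted p = 0.0962), Csmd2 (-0.77 ± 0.33, adjusted p = 0.0875), Ctnna2 (-0.73 ± 0.35), Magi2 (0.62 ± 0.30) and Ctnna3 (0.73 ± 0.62) did not pass. Neuron markers summed to between 2246 and 3216 CPM in sorted astrocyte nuclei and to between 3743 and 5198 CPM in presort nuclei of this line, with 9 of 13 markers lower in sorted nuclei. Oligodendrocyte markers summed to between 1376 and 2041 CPM in sorted and 3524 to 5386 CPM in presort nuclei, with 10 of 12 lower, and 6 of 7 granule cell and 4 of 6 endothelial markers were lower. The part of these markers in the differences was not tested.

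In the oligodendrocyte line 2 of 9 genes were higher in sorted nuclei (5.12% of all genes) and none was lower (3.24%). Ptprd had 16010, 14250, 14650 and 23280 CPM in sorted nuclei and 1996, 1563, 2077 and 1787 CPM in presort nuclei, 8.77-fold higher in sorted nuclei with no overlap (log2 fold change 3.13 ± 0.37, adjusted p = 0.00136). Groups did not overlap for 23% of all genes in this line. The call of Ptprd was lost among females alone, which include replicate 36 (3.37, adjusted p = 0.627). Ctnna3 had 48.0 to 170 CPM in sorted nuclei and 22.6, 12.5, 13.7 and 0 CPM in presort nuclei, where it rested on 0 to 8 counts (3.08 ± 0.77, adjusted p = 0.0302). That call was lost when any 1 of the 4 presort libraries was left out (adjusted p = 0.0618 without replicate 9, 0.104 without 11, 0.106 without 33 and 0.0684 without 35). Ctnna3 was tested in only 5 of the 8 fits with 1 library left out, and kept the call in the fit without sorted replicate 36. In the fits without another sorted library it did not pass the count filter.

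Without sorted oligodendrocyte replicate 36, 4 genes passed as higher and 1 as lower, where 1031 and 1038 of all 6174 genes did. Ptprd then had a log2 fold change of 2.84 ± 0.25 and Ctnna3 of 3.28 ± 0.49. Lrp1b passed at 1.01 ± 0.29 (adjusted p = 0.0131, against 1.42 ± 0.44 and 0.0694 with all libraries), and so did Magi2 at 1.40 ± 0.35 (adjusted p = 0.00603, against 1.25 ± 0.44 and 0.105). Csmd1 became lower in sorted nuclei at -2.75 ± 0.36 (adjusted p = 6.87e-05), whereas with all libraries it had 0.75 ± 1.13. Csmd3 (0.38 ± 0.46), Csmd2 (0.92 ± 0.52), Ctnna2 (0.76 ± 0.51) and Dlg2 (1.12 ± 0.65) did not pass with or without this library, and Dlg2 had 0.06 ± 0.35 without it. Neuron markers summed to between 1265 and 3345 CPM in sorted oligodendrocyte nuclei and 3697 to 5771 CPM in presort nuclei, with 2 of 13 lower in sorted nuclei. Precursor markers summed to between 785 and 4116 CPM in sorted and 237 to 446 CPM in presort nuclei. Bcas1 alone gave 690 to 4061 CPM of the sums in sorted nuclei. Of 4 precursor markers tested 1 was higher in sorted nuclei and 0 lower, with a median log2 fold change of -1.41. The part of the neuron and precursor markers in these results was not tested.

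In the neuron line, of 8 genes tested 1 was higher in sorted nuclei (1.27% of all genes) and none lower (5.1%). Ctnna2 had 121, 149, 153 and 117 CPM in sorted neuron nuclei and 46.9, 47.6, 59.2 and 63.8 CPM in presort nuclei, 2.31-fold higher without overlap (log2 fold change 1.21 ± 0.27, adjusted p = 0.0114). The presort values rested on 16 to 18 counts, and the groups did not overlap for 15.7% of all genes. The call was lost within males (1.38, adjusted p = 0.173) and within females (1.04, adjusted p = 0.0679), each with 4 libraries. Csmd3 (0.51 ± 0.28), Lrp1b (0.43 ± 0.26), Ptprd (0.31 ± 0.22), Dlg2 (0.28 ± 0.28), Magi2 (0.25 ± 0.27), Csmd1 (0.22 ± 0.26) and Csmd2 (-0.61 ± 0.38) did not pass, and Ctnna3 had too few counts to be tested. Of the markers, 12 of 12 oligodendrocyte and 7 of 12 astrocyte markers were lower in sorted than in presort nuclei of this line. So were 5 of 6 precursor, 5 of 7 microglia and 2 of 3 endothelial markers. Higher were 3 of 7 granule cell and 1 of 13 neuron markers. The part of these markers in the Ctnna2 difference was not tested.

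**Figure D3:**
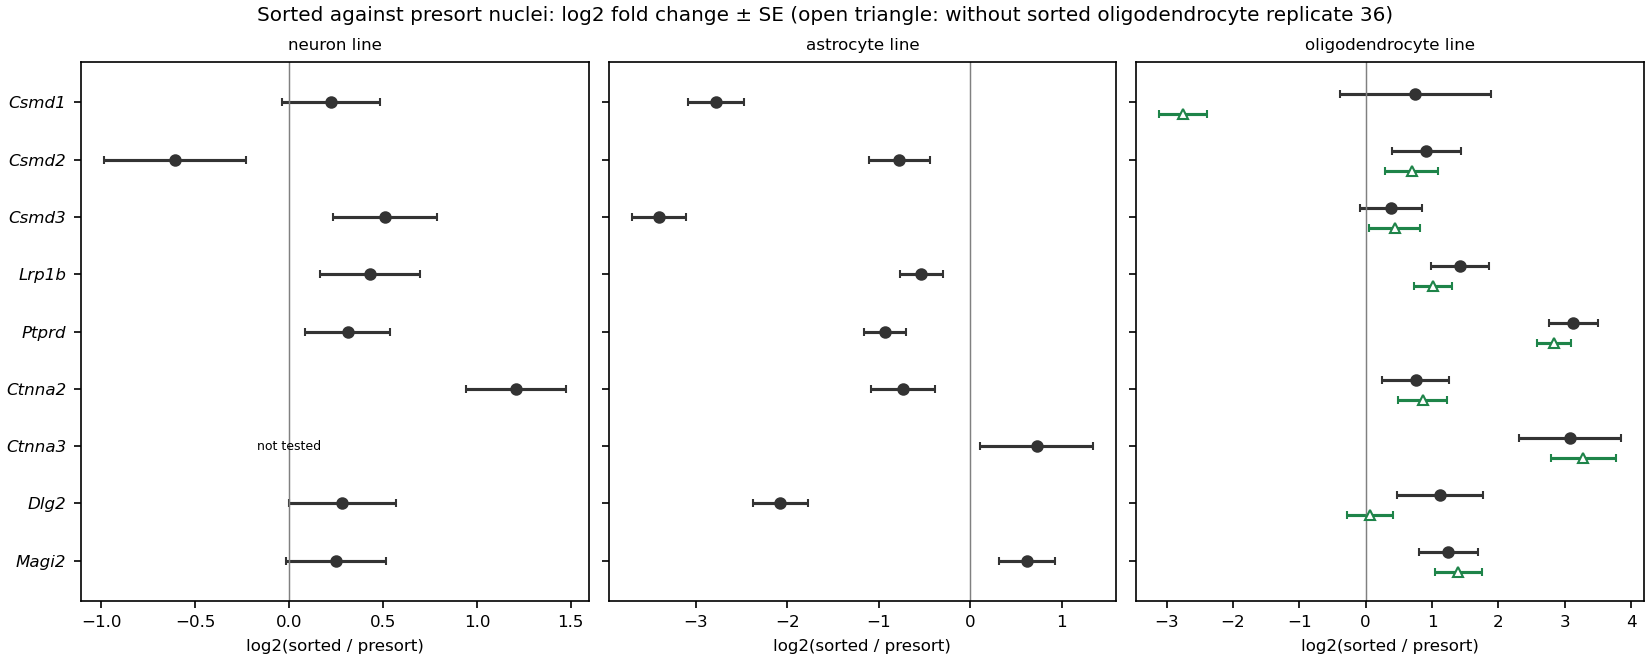
Log2 fold change ± SE of sorted over presort nuclei (x axis) for the 9 genes (y axis) in the neuron, astrocyte and oligodendrocyte lines, 4 libraries a group. Csmd1, Csmd3 and Dlg2 lie between -3.40 and -2.07 in the astrocyte line, Ptprd and Ctnna3 near 3 in the oligodendrocyte line, and the open triangles leave out sorted oligodendrocyte replicate 36.

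Among other genes of over 1 Mb, 17 of 43 tested were lower and 8 higher in sorted than presort nuclei of the astrocyte line, with a median of -0.65, beside a median of -0.77 for the 9 genes. In the oligodendrocyte line 7 of 39 were lower and 1 higher, with a median of -1.43, while the 9 genes had values from 0.38 to 3.13 with a median of 1.12. Without replicate 36, 15 of 32 were lower and 3 higher, where 1038 and 1031 of all 6174 genes were. Their median was -0.96, beside 0.86 for the 9 genes. In the neuron line 3 of 43 were lower and 2 higher, with a median of 0.48, beside 0.30 for the 8 genes tested. Over all genes tested the medians were -0.03, -0.07 and 0.07.

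Presort nuclei were compared with cytoplasm, a contrast that uses none of the sorted libraries. Csmd1, Csmd2, Csmd3, Lrp1b and Ptprd, the membrane proteins, were all higher in nuclei, 5 of 8 genes tested where 20.6% of all genes were. Ctnna2 and Dlg2 were lower, 2 of 8 where 29.8% of all genes were, and Magi2 did not pass. Csmd3 had 175 to 641 CPM in the 12 presort libraries (median 386) and 44.99 and 24.6 CPM in cytoplasm, 11.3-fold higher in nuclei (log2 fold change 3.50 ± 0.47, adjusted p = 3.38e-06). Lrp1b had 296 to 636 CPM (median 441) in nuclei and 75.3 and 31.8 CPM in cytoplasm (2.90 ± 0.39, adjusted p = 4.18e-06). For Csmd1 nuclei had 97.2 to 212 CPM (median 157) and cytoplasm 15 and 32.3 CPM (2.60 ± 0.39, adjusted p = 1.43e-05). For all 5 genes the groups were apart, as they were for 31.6% of all genes.

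Ptprd had 1389 to 2447 CPM (median 1975) in presort nuclei and 370 and 265 CPM in cytoplasm (2.45 ± 0.29, adjusted p = 9.02e-07). By counts it ranked 9 to 27 among all genes in presort libraries and 659 and 775 in cytoplasm. Csmd2 had 45.1 to 138 CPM (median 98.9) in nuclei and 9.23 and 32.9 CPM in cytoplasm (2.05 ± 0.47, adjusted p = 0.00103). These 5 genes still passed without either cytoplasm library, a fit in which the lone cytoplasm library is assumed to vary like the presort ones, with log2 fold changes from 1.49 (Csmd2 without replicate 1) to 4.07 (Csmd3 without replicate 1). The 2 cytoplasm libraries had the largest chi-square per degree of freedom of any pair of 1 group (145.8). This value grows with depth, and they were the deepest libraries, so it does not show that they differed most. Other markers also differed between the fractions: 7 of 7 endothelial markers were higher in presort nuclei (summed 87.3 to 1076 CPM, against 8.65 to 12.8 CPM in cytoplasm), as were 3 of 4 precursor markers (230.6 to 446 CPM, against 105 to 202 CPM). Their part in these results was not tested.

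The lower calls rested on 1 library. Ctnna2 had 32.4 to 145 CPM (median 64.4) in presort nuclei and 243 and 85.8 CPM in cytoplasm replicates 1 and 2 (-1.23 ± 0.41, adjusted p = 0.0165). Dlg2 had 173 to 570 CPM (median 322) in nuclei and 902 and 250.4 CPM in cytoplasm (-0.99 ± 0.36, adjusted p = 0.0269). Cytoplasm replicate 2 lay within the presort range for both. Without cytoplasm replicate 1, Ctnna2 had -0.22 (adjusted p = 0.751) and Dlg2 0.28 (adjusted p = 0.620). Neuron markers summed to 26030 CPM in cytoplasm replicate 1 and 10720 CPM in replicate 2, against 3697 to 5920 CPM in presort nuclei, 11 of 13 markers were lower in presort nuclei, and their part in these values was not tested. Magi2 had 130 to 344 CPM (median 243) in nuclei and 197 and 185 CPM in cytoplasm, within the presort range (0.20 ± 0.31, adjusted p = 0.609). Ctnna3 did not pass the count filter, with 0 to 36.9 CPM in presort nuclei and 2.60 and 2.41 CPM, 9 counts each, in cytoplasm. With the 12 sorted libraries in place of the presort ones, Lrp1b alone passed (3.71 ± 0.94, adjusted p = 0.0163), and Csmd1, Csmd2, Csmd3 and Ptprd had log2 fold changes from 2.22 to 4.41 with larger errors. Without replicate 36 Lrp1b again passed alone (3.18 ± 0.71, adjusted p = 0.00384), and the 4 others ranged from 1.58 to 3.75.

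**Figure D4:**
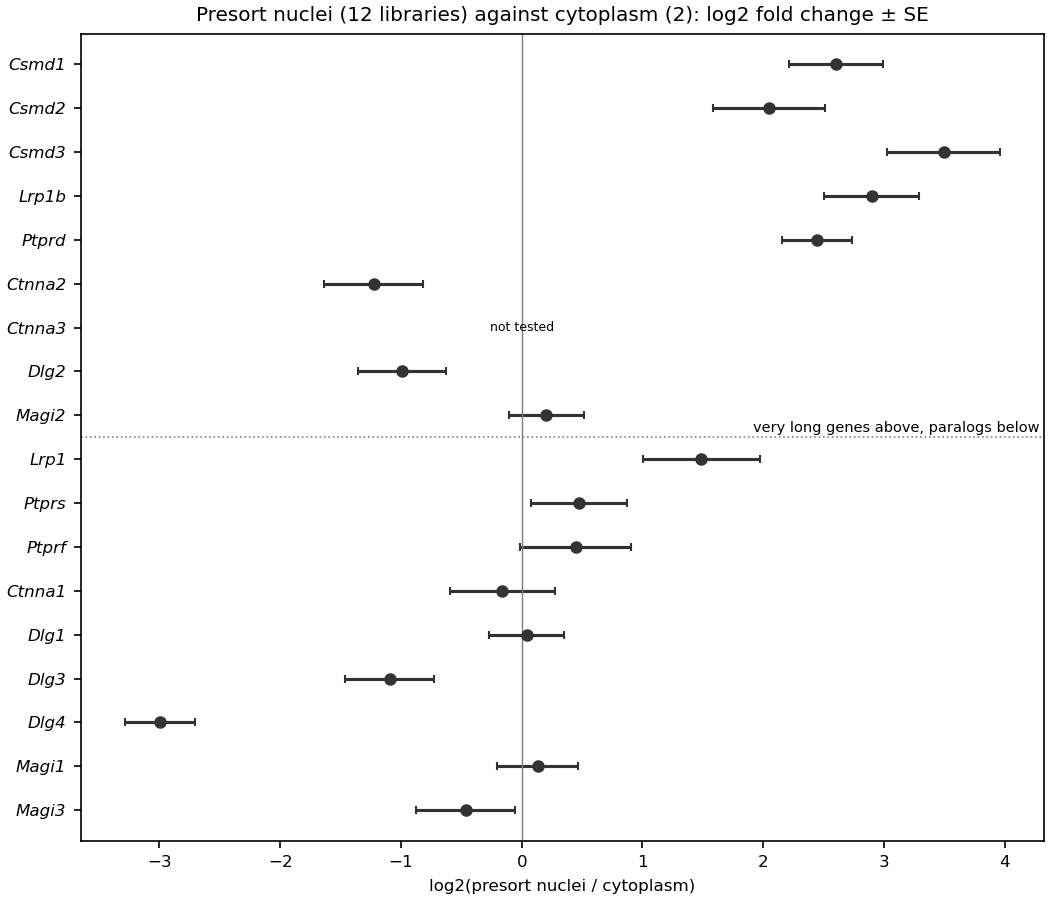
Log2 fold change ± SE (x axis) of presort nuclei (12 libraries) over cytoplasm (2 libraries) for the very long genes and 9 shorter paralogs (y axis). Csmd1, Csmd2, Csmd3, Lrp1b and Ptprd lie between 2.05 and 3.50, Dlg2 and Ctnna2 at -0.99 and -1.23, and the paralog Dlg4 at -2.998.

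The families of these genes were described from lists, drawn up with earlier results of these data known. Beside direct paralogs, genes were named for the largest absolute log2 fold changes among those that passed. Their values and adjusted p between sorted types, and those of Lrrtm3 above, are therefore a description from which nothing is concluded. In the LDL receptor family 6 of 12 genes tested other than Lrp1b were higher in presort nuclei than in cytoplasm and none was lower, where 20.6% of all genes were higher and 29.8% lower in this comparison. The median log2 fold change was 1.25, against -0.10 over all 7728 genes. Among them were Vldlr (1.60 ± 0.39), Lrp1 (1.49 ± 0.48, adjusted p = 0.0140), Sorl1 (1.42 ± 0.33), Lrp6 (1.40 ± 0.31) and Lrp8 (1.11 ± 0.42). Lrp1, the large endocytic receptor nearest to Lrp1b, was distributed differently from it: it averaged 1099 ± 347 CPM in sorted astrocytes, 484 ± 388 CPM in sorted neurons and 151 ± 37.9 CPM in sorted oligodendrocytes, and was higher in astrocytes than in oligodendrocytes (2.94 ± 0.48, adjusted p = 0.000369; 2.96 ± 0.49 without replicate 36). Lrp2 averaged at most 1.87 CPM in any group.

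Among LAR phosphatases and their partners 8 of 16 were higher in presort nuclei than in cytoplasm and 1 was lower (20.6% and 29.8% of all genes), with a median of 0.85. The synaptic partners of the Slitrk family were among the higher ones, including Slitrk1 (2.06 ± 0.29, adjusted p = 7.68e-06) and Slitrk2 (1.98 ± 0.41), and Ppfia3, a liprin, was lower (-1.58 ± 0.34). The phosphatases Ptprs (0.47 ± 0.40) and Ptprf (0.45 ± 0.46) did not pass. Ptprs did not share the oligodendrocyte excess of Ptprd: it averaged 543 ± 284 CPM in sorted neurons, 526 ± 124 CPM in sorted astrocytes and 199.8 ± 96.8 CPM in sorted oligodendrocytes (SD, n = 4 each), and was higher in neurons than in oligodendrocytes (1.49 ± 0.45, adjusted p = 0.0235; 1.21 ± 0.36 without replicate 36). Of the ligands of Ptprd, Il1rap was higher in sorted oligodendrocytes than in neurons (neurons over oligodendrocytes -2.08 ± 0.40, adjusted p = 0.00140) and astrocytes (astrocytes over oligodendrocytes -3.93 ± 0.45), and it was higher in sorted than presort nuclei of the oligodendrocyte line (361 ± 48.7 CPM and 70.8 ± 31.97 CPM; 2.23 ± 0.47, adjusted p = 0.0148). Without replicate 36 these 3 values of Il1rap were -2.10 ± 0.31, -3.99 ± 0.35 and 2.17 ± 0.35. Slitrk1, with 786 ± 61.8 CPM in sorted neurons and 43.7 ± 28.6 CPM in sorted astrocytes, was higher in neurons than in astrocytes (4.12 ± 0.69) and oligodendrocytes (4.07 ± 0.68, and 3.67 ± 0.39 without replicate 36).

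Of the other catenins and classical cadherins 7 of 12 were higher in presort nuclei and 2 lower (20.6% and 29.8% of all genes), with a median of 1.13. The higher ones included vinculin (Vcl, 2.54 ± 0.42) and the cadherin Cdh8 (1.90 ± 0.39), and the lower ones were beta-catenin (Ctnnb1, -2.02 ± 0.35) and Ctnnd2 (-1.70 ± 0.27). Ctnna1, a further alpha-catenin, did not pass (-0.16 ± 0.44). Between sorted neurons and astrocytes Ctnna1 had -1.28 ± 0.77 with all libraries (adjusted p = 0.312) and -1.29 ± 0.27 without replicate 36 (adjusted p = 0.000911), and between neurons and oligodendrocytes -1.13 ± 0.76 and -1.55 ± 0.28. Of the MAGUK and MAGI scaffolds 1 of 17 was higher in presort nuclei and 8 lower (20.6% and 29.8% of all genes), with a median of -0.49. The lower ones included the postsynaptic scaffolds Shank1 (-3.27 ± 0.43, adjusted p = 2.70e-06), Dlg4 or PSD-95 (-2.998 ± 0.289), Dlgap3 (-2.16 ± 0.41), Mpp2 (-2.12 ± 0.40) and Dlg3 (-1.09 ± 0.37), whereas Dlg5 was higher (1.57 ± 0.45). Dlg1 (0.04 ± 0.31), Magi1 (0.13 ± 0.34) and Magi3 (-0.46 ± 0.41) did not pass.

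Gene span was compared with the difference between presort nuclei and cytoplasm over protein-coding genes. The median log2 fold change was -0.84 for 1286 genes under 10 kb, -0.09 for 4697 genes of 10 to 100 kb, 0.15 for 1368 genes of 100 to 500 kb, 0.54 for 123 genes of 500 kb to 1 Mb other than Csmd2, and 0.58 for 37 genes of over 1 Mb other than those described here. In the last class 14 of 37 genes were higher in nuclei and 7 lower. The higher ones included the glypican Gpc5 (3.07) and the astrotactin Astn2 (2.74), and the lower ones the splicing factor Rbfox1 (-2.41) and the potassium channel subunit Kcnip4 (-2.16). These 4 were chosen after their values were seen.

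**Figure D5:**
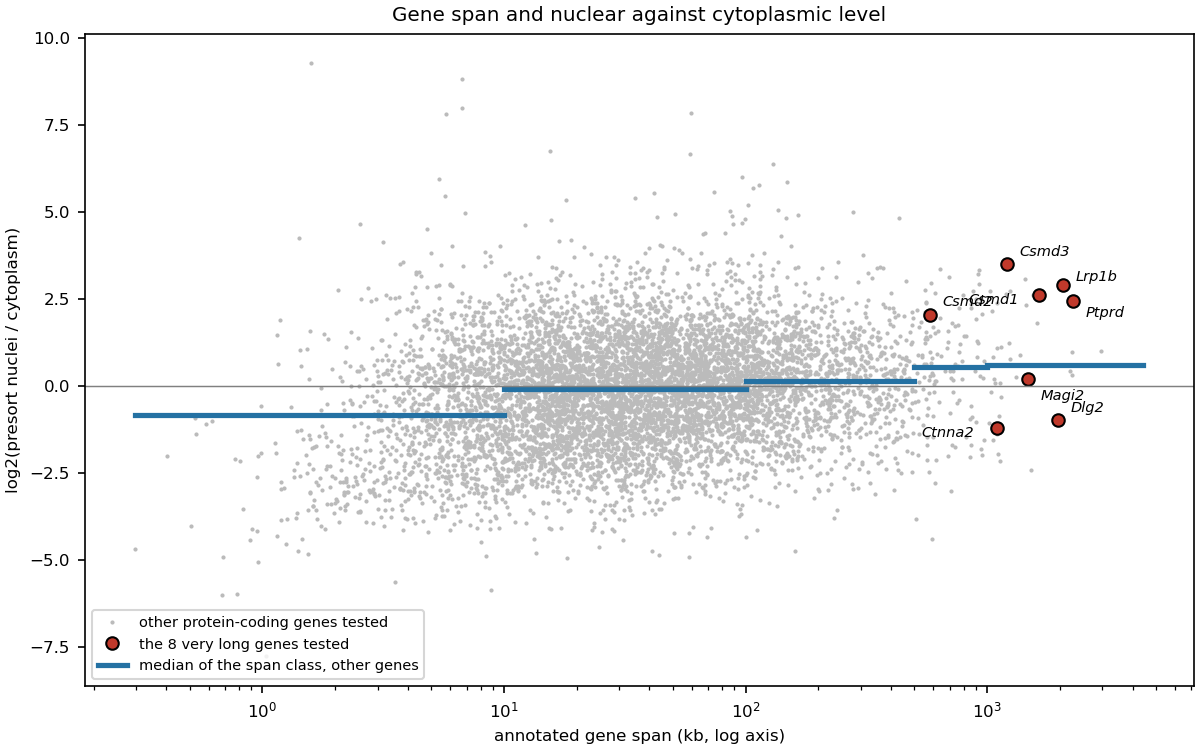
Annotated gene span in kb (log axis) against the log2 fold change of presort nuclei over cytoplasm for protein-coding genes tested, with the median of the other genes in each span class as a line. The class medians run from -0.84 under 10 kb to 0.58 over 1 Mb, and the 8 very long genes tested lie from -1.23 to 3.50.

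For sex and line none of the genes tested passed the threshold in edgeR or DESeq2. In the nuclear libraries males had replicate numbers 1 to 12 and females 25 to 36, so sex cannot be told apart from this numbering. Between females and males in sorted nuclei 0 of 9 passed (0.0424% of all genes did) and 1 had an unadjusted p under 0.05. In presort nuclei 0 of 8 passed (0.655% of all genes), and again 1 had an unadjusted p under 0.05. That gene was Magi2 in both comparisons, with female over male log2 fold changes of -0.83 ± 0.28 (adjusted p = 0.868) in sorted and -0.54 ± 0.19 (adjusted p = 0.242) in presort nuclei. Dlg2 in sorted nuclei had 0.82 ± 0.39 with replicate 36, a female, and 0.37 without it. Among the 3 lines in presort nuclei 0 of 8 passed (0% of all genes in edgeR) and none had an unadjusted p under 0.05. Here too the share of all genes under that unadjusted cut was not counted. The presort means of Ptprd were 1822 ± 386 CPM in the neuron line, 2049 ± 336 CPM in the astrocyte line and 1856 ± 230.2 CPM in the oligodendrocyte line (SD, n = 4 each).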

How the data were processed

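RNA was measured in 26 libraries of sorted nuclei, presort nuclei and cytoplasm of mouse brain. Per the labels' protocols, Trizol extraction and DNase treatment were followed by clean-up with Qiagen minelute and by amplification with NuGEN Ovation RNA-seq V2. Per the submitters' processing notes, Trimmomatic, STAR, Bowtie2, bedtools and edgeR were used; the sources used here give neither their order and versions nor the counted regions. The deposited table holds raw read counts per Ensembl identifier (27501 identifiers, 6450 of them at 0 in all libraries). Symbols, spans and exonic lengths came from GENCODE M21 (GRCm38), which held 26495 of these 27501 identifiers.

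Each comparison was fitted with edgeR 4.0.16 (R 4.3.3) on counts, with filterByExpr at a minimum count of 10, TMM scaling, the quasi-likelihood test and Benjamini-Hochberg adjustment over all genes tested; a gene passed at an adjusted p under 0.05. Each test across genes was two-sided, and SE is the absolute log2 fold change over the root of F. Sorted types shared 1 fit of 12 libraries, each line had a fit of 8, and presort nuclei and cytoplasm a fit of 14. CPM used TMM-scaled totals over 26 libraries. The same steps were tested on simulated data. DESeq2 1.42.0, RLE scaling, no filter, 1 sex at a time, 1 fit of 24 nuclear libraries, sorted in place of presort libraries and leaving out each library were the alternatives. No replicate pair agreed within sampling noise (smallest chi-square per degree of freedom 1.97). Counting error alone sets the floor of 3 counts, and reads carry no molecular identifiers.

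The genes named are the 9 members, by their roles, members of family lists, and the 3 nearest profiles per member; some named by this rule are not reported here. Members and lists were chosen with earlier results of these data known.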

Additional observations from a re-analysis of the deposited data

Results flagged for a closer look

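In 54 gene and group combinations of 4 libraries, 7 had a library far from the others by Dixon's test at 95%, where chance gives about 1 in 20. Both flags in sorted oligodendrocytes fell on replicate 36: Csmd1 at 825.9 CPM against 20.78 to 31.59 CPM in the others, and Dlg2 at 1708 CPM against 330.7 to 510.3 CPM. In sorted neurons Lrp1b was low in replicate 2, at 330.5 CPM against 626.4 to 674.9 CPM. In presort nuclei of the neuron line Csmd3 was high in replicate 25, at 634.4 CPM against 342.8 to 379.2 CPM. In presort nuclei of the astrocyte line Lrp1b was high in replicate 29 (636.2 CPM against 436.7 to 453.8 CPM), Ctnna3 in replicate 31 (36.9 CPM, from 10 counts, against 6.932 to 10.73 CPM) and Magi2 in replicate 5 (343.2 CPM against 243.5 to 259.9 CPM).

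For Lrp1b and Ptprd all sorted libraries lay below all presort libraries in the astrocyte line and above them in the oligodendrocyte line, where 27.1% and 23% of all genes had groups that did not overlap. Sorted over presort log2 fold changes of Lrp1b were -0.535 in the astrocyte line and 1.423 in the oligodendrocyte line, neither past the threshold, and those of Ptprd were -0.927 and 3.132, both past it. The difference between lines was not tested.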

How the results depend on the processing

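Of 841 member fold changes with 1 library left out, 782 kept their direction and side of the threshold, 23 lost their call, 14 gained one and 22 changed sign; of 391 under the other alternatives the numbers were 338, 26, 16 and 11. The cause was not tested except where an alternative has fewer libraries by construction. No paired analysis was possible because the groups compared share fewer than 2 replicate numbers, and no label ties a presort library to a sorted one. The design text says that presort RNA was taken from each mouse, so any such pairing was not used. Presort libraries held as few as 147826 counts, and Ctnna3 had 0 to 8 counts in those of the oligodendrocyte line. Profiles, paralog ratios, listed genes and sorted nuclei over cytoplasm without replicate 36 were alternatives chosen after seeing the data.

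Sign changes with 1 library left out gave these ranges of log2 fold changes. For neurons over astrocytes Csmd2 ranged from -0.075 to 0.416. For neurons over oligodendrocytes the ranges were -0.843 to 3.025 (Csmd1), -0.092 to 0.444 (Csmd3), -0.195 to 0.069 (Ctnna2) and -1.282 to 0.029 (Dlg2), and for astrocytes over oligodendrocytes -3.491 to 0.335 (Csmd1). Sorted over presort, Magi2 ranged from -0.053 to 0.456 in the neuron line and Csmd1 from -2.748 to 1.119 in the oligodendrocyte line. Presort nuclei over cytoplasm, Dlg2 ranged from -1.604 to 0.279, and females over males, Ctnna3 from -0.453 to 0.239 (sorted) and Lrp1b from -0.05 to 0.194 (presort). Under other alternatives the reversed values were -0.295 for Csmd2 in neurons over astrocytes (females only), and for Ctnna2 in neurons over oligodendrocytes 0.007 (DESeq2), 0.01 (RLE), 0.01 (no filter) and 0.073 (females only). With males only Csmd1 had 3.286 for neurons and 0.623 for astrocytes over oligodendrocytes, and in the oligodendrocyte line Csmd1 had -3.15 and Dlg2 -0.295. With females only Ctnna3 had -0.425 in the astrocyte line and Dlg2 0.294 over cytoplasm.

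Counts of genes moved as follows. With males only, neurons over astrocytes had 1627 genes higher, neurons over oligodendrocytes 1 member higher, the neuron line 0 members and 0 genes higher and 127 lower, the astrocyte line 726 higher and 802 lower, and the oligodendrocyte line 1081 higher, 1070 lower and 1 member lower. With females only, neurons over astrocytes had 0 members higher and 0 lower (8 and 38 genes), neurons over oligodendrocytes 1 member lower (9 genes higher, 114 lower), astrocytes over oligodendrocytes 1 member lower (17 higher, 50 lower), the neuron line 0 members and 241 genes higher, the oligodendrocyte line 0 members higher and 0 genes higher or lower, and nuclei over cytoplasm 0 members lower. One fit of 24 nuclear libraries gave 5 members and 1663 genes higher for neurons over astrocytes, 5 members lower for neurons over oligodendrocytes, and 8 members and 1834 genes lower for astrocytes over oligodendrocytes. DESeq2 gave 2288 genes higher for neurons over oligodendrocytes, 252 higher in the neuron line, 938 lower in the oligodendrocyte line, 59 and 128 by sex in sorted and presort nuclei and 4 among lines. With no filter there were 383 higher in the neuron line, 2558 lower in the astrocyte line, 839 higher in the oligodendrocyte line, 2617 higher and 4198 lower over cytoplasm, 30 and 129 by sex and 1 among lines. Sorted in place of presort libraries gave 1 member higher, 0 lower, 458 genes higher and 1273 lower.

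With 1 library left out, members higher and lower ranged from 3 to 5 and 0 to 1 for neurons over astrocytes (684 to 2299 and 1177 to 2797 genes), 0 to 1 and 2 to 4 for neurons over oligodendrocytes (1099 to 2263 and 1214 to 2544), and 0 to 0 and 4 to 6 for astrocytes over oligodendrocytes (990 to 1980 and 715 to 1588). They ranged from 1 to 1 and 0 to 0 in the neuron line (45 to 262 and 297 to 789), 0 to 1 and 4 to 5 in the astrocyte line (893 to 1847 and 943 to 1841), 1 to 4 and 0 to 1 in the oligodendrocyte line (212 to 1031 and 55 to 1038), and 5 to 5 and 0 to 2 over cytoplasm (1413 to 2136 and 2156 to 2403). By sex 5 to 51 (sorted) and 15 to 46 genes (presort) passed, and 0 to 0 among lines. Without scaling in place of TMM, the median over all genes of the difference in mean log2 CPM (with a prior count of 2, so not the fitted fold changes whose medians are given above) moved to 0.833 in place of 0.527 for neurons over oligodendrocytes, 0.522 in place of 0.37 for astrocytes over oligodendrocytes, 0.275 in place of 0.119 for neurons over astrocytes, -0.762 in place of -0.307 in the oligodendrocyte line, -0.225 in place of -0.002 in the astrocyte line, 0.011 in place of 0.129 in the neuron line and 0.481 in place of -0.051 over cytoplasm.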
